A study of Mus musculus with 4 samples.

Results

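The genes described here encode the proteins of the cytosolic ribosome in mouse pancreatic islets. They were taken by symbol: Rpl or Rps with a number and at most 1 further letter a, x, l or y before any closing digits, with Rplp0, Rplp1, Rplp2 and Rpsa. This gave 83 of the 32285 genes in the feature table, 51 of the large subunit and 32 of the small subunit, on 19 chromosomes, 4 of the genes on chromosome X. All 83 are annotated as protein-coding genes, and 82 had at least 1 unique molecular identifier (UMI, a counted molecule) in a barcode of at least 1000 UMIs. Rpl10l was the one without.

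The cytosolic ribosome joins a small subunit, which reads the mRNA, to a large subunit, which forms the peptide bond, and each protein is needed in about equal number. Their mRNAs are among the most abundant in growing cells, and many start with a C followed by a run of pyrimidines, the 5′ terminal oligopyrimidine tract through which mTOR signalling sets their translation. Several have paralogues with restricted tissue patterns, such as Rpl3l in muscle and Rpl10l and Rpl39l in testis, and Rps27l is a known target of p53.

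Islets of C57BL/6 mice, wild type or Malat1-/- (lacking the long non-coding RNA Malat1, called Malat1-null below), were cultured, dispersed into single cells and profiled by 10x Genomics 3′ sequencing. The libraries used here are 1 of wild type and 1 of Malat1-null islets, both treated with TCDD, a dioxin and ligand of the aryl hydrocarbon receptor (Ahr). The 2 libraries with the solvent DMSO were not analysed here, so nothing below speaks of an effect of TCDD. The dose and time of treatment, the number, age and sex of the mice and the way the null allele was made are not given in the sources used here. With 1 library per genotype there is no test and no spread between animals, and every interval below is a 95% interval that covers counting error only.

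The wild-type library held 2166 barcodes of at least 1000 UMIs (median 26116 UMIs) and the Malat1-null library 3198 (median 34038), and 1 barcode sequence occurred in both. In CPM (the share of all UMIs on the usual scale of counts per 1e6), Malat1 stood at 11821 in the wild-type barcodes and at 0.439 in the Malat1-null ones, where 52 UMIs lay in 37 barcodes. Beta cell is the labelled cell type of both libraries. By their markers, beta-like barcodes made up 42.8% of the wild-type and 55.8% of the Malat1-null barcodes. The rest held other endocrine, exocrine, endothelial and immune classes, while 161 and 667 barcodes stayed unnamed. Clusters were formed without the genes described here and other symbols starting with Rpl or Rps, so these did not enter the clustering directly. Whether genes that vary with them influenced the classes was not tested.

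Sequences around the start site show the pyrimidine tract in these genes. Of the 83 genes, 63 were found in the RefSeq promoter table for GRCm38.p6. In 13 of them (20.6%) an annotated start was a C followed by 4 pyrimidines, against 3.01% of 27025 genes in the same table and 0 of 69 genes for mitochondrial ribosomal proteins. A run of at least 6 pyrimidines (C or T, on the strand of the gene) within 10 bases on either side of the start was present in 50.8% of the 63, in 23.0% of all genes and in 26.1% of the mitochondrial set. An annotated start can lie some bases from the start used in a cell. The windows below run from 25 bases before the annotated start to the 10th transcribed base, with the longest pyrimidine run near the start in capitals. They show 4 genes whose tract spans the start, then Rps27l and Rpl22l1, paralogues whose share differs between classes.
Rps27 (chr3:90213639-90213673, minus strand): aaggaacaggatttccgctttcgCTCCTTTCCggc
Rps21 (chr2:180257354-180257388, plus strand): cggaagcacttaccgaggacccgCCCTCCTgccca
Rpl38 (chr11:114668555-114668589, plus strand): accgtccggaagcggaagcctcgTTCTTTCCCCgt
Rps18 (chr17:33955656-33955690, minus strand): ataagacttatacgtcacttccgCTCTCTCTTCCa
Rps27l (chr9:66946061-66946095, plus strand): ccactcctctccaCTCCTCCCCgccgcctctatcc
Rpl22l1 (chr3:28805483-28805517, plus strand): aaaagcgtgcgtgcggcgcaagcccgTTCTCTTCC
In Rps27l the run lies before the annotated start, while in Rpl22l1 it begins 1 base after it.

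The share of all UMIs that came from the 83 genes differed several-fold between cell classes in both libraries. Among the named classes beta-like barcodes were lowest, at 5.63% in wild type (928 barcodes, 5.62% to 5.63%) and 4.78% in Malat1-null (1784 barcodes, 4.78% to 4.79%). B cell-like barcodes stood at 31.2% and 25.4%, and T or NK-like barcodes at 30.2% and 33.5%, so lymphoid barcodes gave about 5 to 7 times the beta-like share. Ductal-like barcodes stood at 27.6% (136 barcodes) and 27.5% (17 barcodes).

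The other endocrine classes lay between these groups. Alpha-like barcodes held 15.7% and 13.9%, delta-like barcodes 10.2% and 11.3%, and PP-like barcodes 7.74% and 8.14%. Endothelial-like barcodes, whose leading gene was Cyp1a1, held 13.9% and 15.9%, and acinar-like barcodes 8.49% and 7.70%. Barcodes of 10 to 99 UMIs, taken here as free RNA, gave 6.41% and 6.06%, close to the beta-like value.

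**Figure D1:**
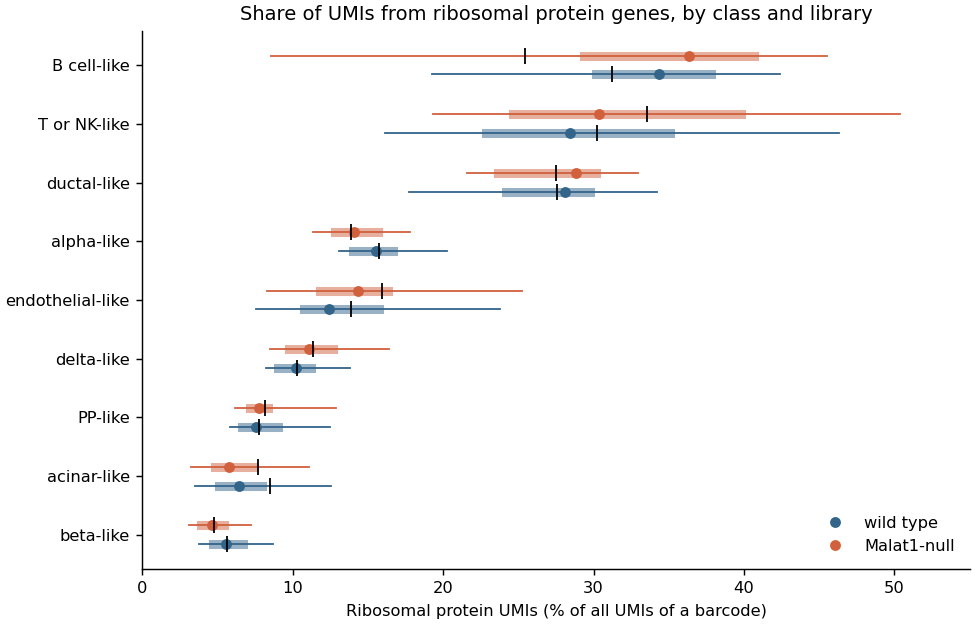
Share of UMIs from the 83 ribosomal protein genes per barcode (x axis, percent) in each class with at least 15 barcodes (y axis), in wild type (blue) and Malat1-null (orange). Dots are medians over barcodes, thick bars the quartiles, thin lines the 5th to 95th percentiles and black ticks the summed share of the class; the beta-like shares of 5.63% and 4.78% are the lowest, and the lymphoid and ductal-like shares lie above 25%.

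Part of this order depends on what the share is taken of, since hormone genes alone gave 57.9% (wild type) and 63.9% (Malat1-null) of the beta-like UMIs. When UMIs of hormone genes, acinar enzymes, mitochondrially encoded genes and Malat1 were left out of the total, the ribosomal protein share was 14.1% and 13.7% in beta-like barcodes. On that scale endothelial-like barcodes stood at 14.6% and 16.2%, delta-like at 15.1% and 16.5%, acinar-like at 16.3% and 15.1%, PP-like at 18.0% and 19.7% and alpha-like at 21.8% and 18.6%. B cell-like barcodes then held 32.9% and 28.4% and T or NK-like barcodes 32.0% and 35.1%, so the lymphoid classes remained above 2 times the beta-like share. Beta-like was no longer the lowest named class on this scale, as macrophage-like barcodes held 8.87% (6 barcodes) and 13.1% (19 barcodes).

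The class averages joined unlike clusters in the lymphoid barcodes. The B cell-like cluster led by Cd79a and Cd74 held 35.6% and 37.8%, whereas the one led by the immunoglobulin genes Igkc, Jchain and Ighm held 26.1% in 36 wild-type barcodes and 18.8% in 78 Malat1-null barcodes. Hormone genes gave 10.7% of the UMIs of that Malat1-null cluster and 0.0862% of the wild-type one. The Malat1-null share of the cluster was 0.723 times the wild-type share. Without hormone, enzyme, mitochondrially encoded and Malat1 UMIs in the total it was 0.786 times. The cause of the lower share was not tested. The T or NK-like cluster led by Trbc2, Cd3g and Tnfrsf9 stood at 25.3% and 28.7%, and the cluster led by Ccl5 and Ms4a4b at 36.5% and 41.1%. Unnamed clusters led by mitochondrially encoded genes had the lowest values, 4.08% and 3.18% in one and 1.47% and 1.59% in the other.

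The genes of the large subunit gave 58.4% (wild type) and 58.8% (Malat1-null) of the ribosomal protein UMIs of beta-like barcodes, and between 54.9% and 58.6% in the 7 other classes with at least 20 barcodes in each library. Across beta-like barcodes the share of the large and of the small subunit genes moved together (Pearson r 0.98 in both libraries; 928 and 1784 barcodes of 1 library each, which share depth and denominator). The summed share was lower in barcodes with more insulin and amylin UMIs (Spearman rho -0.70 and -0.57), and these shares have the same total as their denominator.

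Genes for mitochondrial ribosomal proteins, which build the separate ribosome of that organelle, differed less between the beta-like and T or NK-like classes, and in an order that depended on the total. Their summed share was 0.288% and 0.245% in beta-like barcodes and 0.515% and 0.520% in T or NK-like barcodes. Without hormone, enzyme, mitochondrially encoded and Malat1 UMIs in the total it was 0.721% and 0.702% in beta-like and 0.545% and 0.544% in T or NK-like barcodes, the opposite order. Ribosomal protein genes outside the symbol pattern, led by Fau and Rack1, gave 0.199% and 0.177% in beta-like and 1.38% in T or NK-like barcodes of both libraries.

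Within beta-like barcodes the levels of single genes lay close together. UMIs are counted at the 3′ end of the mRNA, 1 per molecule, so CPM are compared between genes here without division by length. How reads that fit several genes were counted is not given in the sources used here, and its effect on this order was not tested. For the 79 genes that reached 50 CPM in either library, the wild-type median was 645 CPM (quartiles 487 and 808) after scaling with TMM factors, and the Malat1-null median 623 CPM. Rpl41 stood apart, with 2029 CPM in the wild-type and 2314 CPM in the Malat1-null library. It encodes the smallest ribosomal protein, 25 residues, and its whole coding sequence is shown for that reason (78 bases with the stop codon).
Rpl41: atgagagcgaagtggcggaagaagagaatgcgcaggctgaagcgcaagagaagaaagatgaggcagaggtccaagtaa
Rpl19 (1101 CPM), Rps24 (1079 CPM) and Rpl13 (1046 CPM) were also among the 5 most abundant in wild type.

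Paralogues stood at the low end, with Rpl4 (278 CPM) the next above them in wild type. Rps27l was at 266 CPM and Rpl22l1 at 260 CPM in wild-type beta-like barcodes, Rpl7l1 at 22.9 CPM, and Rpl3l, Rpl10l and Rpl39l had no UMI there. A count of 0 in the wild-type beta-like UMIs allows a level of up to 0.0507 CPM at a floor of 3 counts. Rpl39l had 16 UMIs in Malat1-null beta-like barcodes (0.166 CPM by total count), and 20 and 12 UMIs in the barcodes of 10 to 99 UMIs. These 4 genes (Rpl3l, Rpl7l1, Rpl10l and Rpl39l) did not reach 50 CPM and enter no genotype count.

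Malat1-null and wild-type beta-like barcodes had similar levels of each ribosomal protein gene. Of the 79 genes, 0 were at least 25% higher in Malat1-null and 0 were at 0.8 times the wild-type level or below, with an interval that excludes 1. Over all 1640 genes measured in the same way, 9.45% were called higher and 5.55% lower. The median log2 ratio of the 79 was -0.09, beside 0.04 over all 1640 genes. The interval lay below 1 in 58 genes, above 1 in 15 and across 1 in 6, which reflects the depth of these sums, with no spread between mice measured. Scaling to the total count moved the median of all genes to -0.17 and that of the 79 to -0.28. Of the 79, 25 were then called lower, beside 20.9% of 1670 genes, so the count depends on the scaling.

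The highest ratios belonged to Rps27, a small zinc-binding protein of the small subunit, at 814 CPM (wild type) and 987 CPM (Malat1-null; ratio 1.21, 1.20 to 1.23). Rps29, another small zinc-binding protein, stood at 973 and 1178 CPM (1.21, 1.20 to 1.22). Next were Rpl37a at 907 and 1062 CPM (1.17), Rps21 at 857 and 999 CPM (1.17), Rpl38, known for its role in the translation of Hox mRNAs, at 1008 and 1165 CPM (1.16), and Rpl41 (1.14). All 6 encode short proteins.

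The lowest ratio belonged to Rpl23a, which lies at the exit of the peptide tunnel, at 302 and 244 CPM (0.81, 0.79 to 0.82). Rps25, needed for initiation at some viral internal entry sites, stood at 513 and 428 CPM (0.84), Rpl31 at 323 and 272 CPM (0.84) and Rpl12, of the base of the stalk, at 449 and 377 CPM (0.84). Rpl36a (0.85) and Rps2 (0.86) completed the 6 lowest. The stalk proteins Rplp0, Rplp1 and Rplp2 had ratios of 0.96, 0.96 and 0.91, Rpl5 and Rpl11, which bind MDM2, had 0.89 and 0.96, and Rps6, the substrate of S6 kinase, had 0.94.

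**Figure D2:**
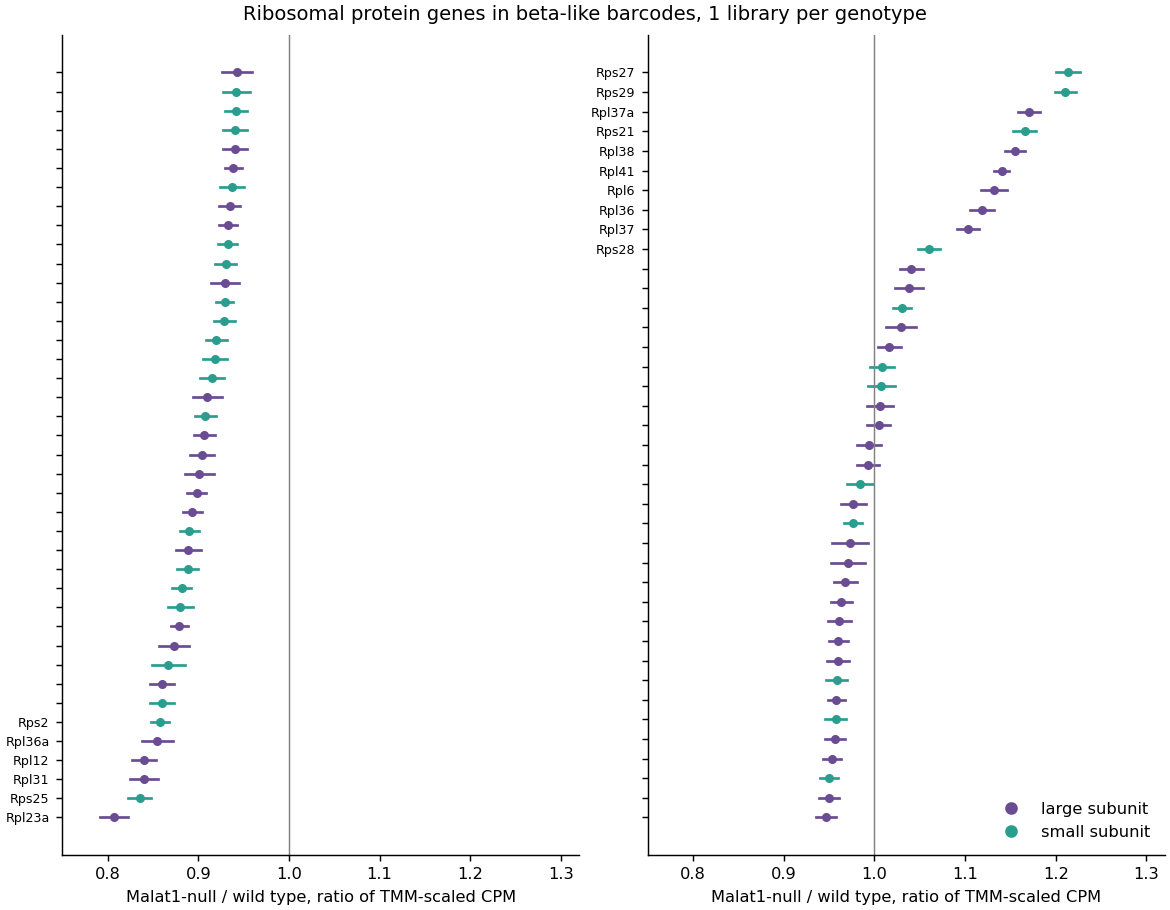
Ratio of TMM-scaled CPM, Malat1-null over wild type (x axis, linear), in beta-like barcodes for the 79 genes with at least 50 CPM, ordered by ratio from bottom to top of the left panel and on through the right panel, with names for the 6 lowest and the 10 highest; purple is the large and green the small subunit, and lines are 95% counting intervals. The ratios run from 0.81 for Rpl23a to 1.21 for Rps27, with 60 of 79 below 1.

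Beta-like barcodes came from 7 clusters that the libraries filled differently. The most wild-type barcodes lay in the clusters led by Glul (274) and Serpina7 (178), the most Malat1-null ones in those led by Slc2a2 (535) and Mlxipl (476). Within clusters the median log2 ratio of the 79 genes ran from -0.38 in the Glul cluster, where 51 were called lower against 21.9% of all genes there, to 0.20 in the cluster led by Hspa5 and Dapl1, where 23 were called higher against 27.6% of all genes. Rps27 had a ratio above 1 in 7 of 7 clusters, Rps29, Rpl37a, Rps21, Rpl38 and Rpl41 in 6 of 7, and Rpl23a and Rps2 in 0 of 7.

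Most of the genes with the shortest coding sequences had a ratio above 1, and some of them lay at the top of this order. Of the 11 shortest (78 to 318 bases, from Rpl41 to Rpl36), 10 had a ratio above 1 in beta-like barcodes, with a median of 1.14, and the exception was Rps27l at 0.87. Among the 68 longer ones 9 were above 1, with a median of 0.94. The next in length were Rpl36a (0.85), Rpl35a (0.93) and Rplp1 (0.96). Taken as shares of all ribosomal protein UMIs, 11 of the 20 shortest genes were higher in Malat1-null beta-like barcodes. The group of 11 was chosen after the values were seen and has no test. Over all 79 genes the relation was weak (Pearson r -0.37, Spearman rho -0.12 between log2 coding length and log2 ratio, the genes sharing 2 libraries). Rpl6, with 891 coding bases, had a ratio of 1.13.

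**Figure D3:**
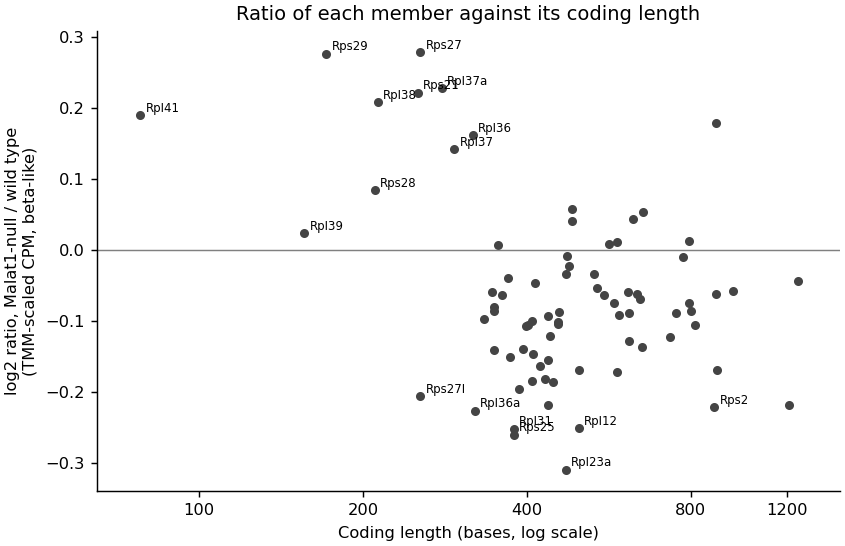
Log2 ratio of Malat1-null over wild type in beta-like barcodes (y axis) against coding length in bases (x axis, log scale) for 79 genes; the 11 shortest and the 6 lowest ratios carry names. Of the 11 shortest, 10 lie above 0 and Rps27l lies at -0.21.

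Most of the short genes also had a ratio above 1 outside the beta-like class. To compare classes without the summed share, each gene was taken as a share of the ribosomal protein UMIs, called the pool below. On that scale Rps27, Rps29, Rpl37a, Rps21, Rpl38, Rps28, Rpl39, Rpl36, Rpl6 and Rpl14 had a ratio above 1 in 7 of 7 other classes. Rpl41 and Rpl37 were above 1 in 6 and the short Rps27l in 4. Rpl6 and Rpl14 are not short, with 891 and 654 coding bases. For Rpl38 the share of the pool went from 1.21% to 1.54% in B cell-like, from 1.41% to 1.63% in T or NK-like and from 0.990% to 1.17% in endothelial-like barcodes. Rpl23a and Rps15 were below 1 in 7 of 7. Over all 79 genes, Spearman rho between coding length and this ratio was -0.32 in endothelial-like, -0.02 in B cell-like and 0.04 in delta-like barcodes.

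In the barcodes of 10 to 99 UMIs most of the short genes were above 1 too. There 10 of the 11 shortest genes had a ratio above 1 (median 1.20), and Rps21 stood at 1738 and 2228 UMIs of 146470 and 136390 ribosomal protein UMIs (ratio 1.38), Rps27 at 1599 and 2013 UMIs (1.35). The difference was thus also measured in barcodes taken here as free RNA. Whether they hold only RNA from outside the cells was not tested. The low-count barcodes were not alike in number. From 100 to 999 UMIs there were 6164 wild-type barcodes (1399352 UMIs), against 51111 Malat1-null barcodes (10424434 UMIs). Ratios of the short genes in that range are not reported here. A difference between genotypes and one between library preparations cannot be told apart.

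In classes other than beta-like the median log2 ratio of the family was above 0 in some classes and below 0 in others. By the same thresholds, the genes called higher and lower in Malat1-null were 1 and 14 of 80 in B cell-like barcodes (all genes 20.2% and 22.8%), 18 and 0 of 80 in T or NK-like (12.5% and 9.42%), 17 and 0 of 79 in delta-like (11.4% and 6.8%), 17 and 0 of 79 in PP-like (12% and 4.67%) and 17 and 0 of 80 in endothelial-like barcodes (16.2% and 16.9%). In alpha-like barcodes 0 were higher and 37 of 79 lower (10.8% and 9.58%). In acinar-like barcodes 0 were higher and 79 of 79 lower, but there 60.2% of all genes were called lower, 9.42% higher and the median log2 ratio of all genes stood at -0.71, beside -1.13 for the 79. Hormone genes gave 20.6% of the Malat1-null acinar-like UMIs and 1.65% of the wild-type ones. In B cell-like barcodes both counts lay below the all-gene shares. The size of the ratios depends on the scaling. With scaling to the total count the median of the family went from 0.19 to 0.04 in PP-like barcodes. In acinar-like barcodes it went from -1.13 to -0.19, and its sign stayed the same in each of these classes. These classes rest on 22 to 309 barcodes per library.

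As shares of the ribosomal protein pool, most genes kept nearly the same place in every class. Over 8 classes with at least 20 barcodes in each library, 78 genes had at least 100 UMIs in each. The ratio of the highest to the lowest class had a median of 1.53, and it was under 2-fold for 71 genes. Compared with beta-like barcodes, 7 of the 83 genes were at least 2-fold lower in some class in both libraries and 0 were higher. Over all genes, taken per ribosomal protein UMI, 5.71% were called higher and 78% lower in B cell-like, 4.81% and 74.6% in T or NK-like, 3.96% and 62% in acinar-like and 1.75% and 17.4% in PP-like barcodes. These classes have a larger ribosomal protein share than beta-like barcodes, which by itself lowers other genes on this scale. The 83 genes are divided by their own sum and cannot move together. The all-gene percentages, here and below, are therefore not a like background for them.

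Among lymphoid barcodes, genes at least 2-fold lower in the T or NK-like class included Rpl41, Rpl10, Rps27l and Rpl7l1. Rpl41 made up 3.87% and 4.51% of the pool in beta-like and 1.60% and 1.76% in T or NK-like barcodes. Rpl10, which is placed late in the maturation of the large subunit, made up 1.87% and 1.82% against 0.858% and 0.748%. In B cell-like barcodes Rps27l and Rpl22l1 were lower by this rule, in acinar-like barcodes Rps27, and in PP-like barcodes Rpl7l1, there on 11 and 12 UMIs.

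Higher shares in lymphoid barcodes stayed within 2-fold. Rps15a was at 2.15% and 1.98% of the pool in T or NK-like and at 1.19% and 1.11% in beta-like barcodes, and Rpl12 at 1.42% and 1.31% against 0.856% and 0.736%. In endothelial-like barcodes Rps2 stood at 3.10% and 2.97%, against 1.70% and 1.50% in beta-like barcodes. No gene was 2-fold apart in alpha-like (all genes 1.92% higher and 23.4% lower), delta-like (3.62% and 6.39%) or endothelial-like barcodes (13.5% and 29.9%), although Rpl7l1 reached 2.17 and 1.94 times its beta-like share in the last.

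**Figure D4:**
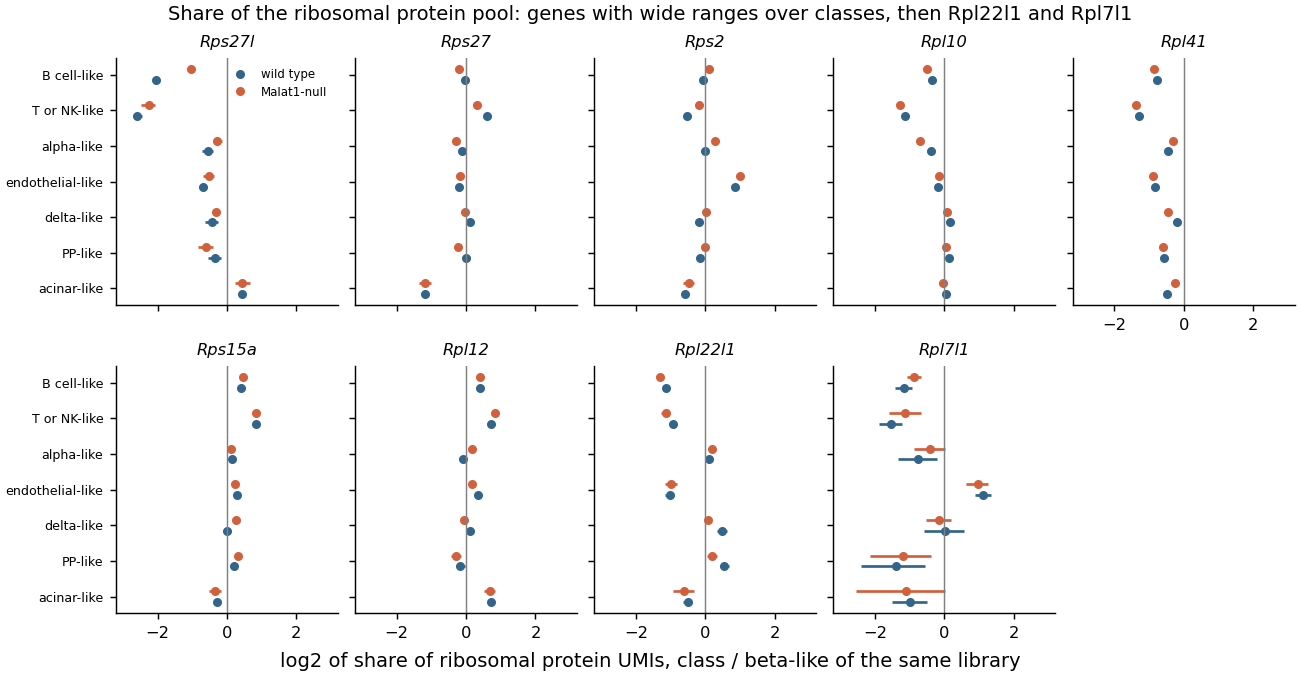
Log2 of a gene's share of the ribosomal protein UMIs in a class over its share in beta-like barcodes of the same library (x axis), for 7 classes (y axis), in wild type (blue) and Malat1-null (orange), with 95% counting intervals; 0 means the same share as in beta-like. The first 7 panels are genes with a wide range over classes, led by Rps27l at 7.25-fold, and the last show Rpl22l1 and Rpl7l1.

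Among the 78 genes with at least 100 UMIs in each class, Rps27l had the widest range over classes, 7.25-fold, and its paralogue Rps27 followed with 3.11-fold in the opposite order. The scarce Rpl7l1, below that minimum, ranged 6.38-fold in wild type and 4.43-fold in Malat1-null, with as few as 11 and 6 UMIs in a class. Rps27 lies on chromosome 3 (90212522 to 90213651, GRCm38, minus strand) and Rps27l on chromosome 9 (66946086 to 66949516, plus strand). Both encode 84 residues. Their coding sequences differ at 61 of 255 bases (76.1% identical), shown in capitals. Reads of this assay lie near the 3′ end of the mRNA, and how a read that fits several genes was counted is not given in the sources used here. The near copy Rps27rt stood at 24.2 CPM in beta-like barcodes of both libraries.
Rps27: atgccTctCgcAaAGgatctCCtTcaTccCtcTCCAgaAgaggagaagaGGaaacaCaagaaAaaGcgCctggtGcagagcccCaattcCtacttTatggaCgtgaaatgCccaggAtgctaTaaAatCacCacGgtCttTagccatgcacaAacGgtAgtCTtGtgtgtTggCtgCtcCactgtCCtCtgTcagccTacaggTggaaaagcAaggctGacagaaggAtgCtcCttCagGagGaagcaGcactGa
Rps27l: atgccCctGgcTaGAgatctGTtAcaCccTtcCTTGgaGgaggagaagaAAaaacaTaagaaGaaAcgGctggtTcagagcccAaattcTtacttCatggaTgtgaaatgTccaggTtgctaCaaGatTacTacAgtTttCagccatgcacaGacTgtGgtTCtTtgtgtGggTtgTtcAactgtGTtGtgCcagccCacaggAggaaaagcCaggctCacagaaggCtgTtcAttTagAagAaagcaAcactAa

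Of the UMIs of the pair, Rps27l held 50.1% (48.0% to 52.2%) in wild-type and 41.9% (37.3% to 46.6%) in Malat1-null acinar-like barcodes. In ductal-like barcodes it held 33.1% and 30.7%. Beta-like barcodes gave 24.6% (24.3% to 24.9%) and 18.9% (18.7% to 19.2%), alpha-like 19.4% and 19.2%, PP-like 20.4% and 15.1%, delta-like 18.2% and 16.2% and endothelial-like 18.9% and 15.5%. T or NK-like barcodes were lowest at 3.50% and 3.78%, so the share spanned more than 10-fold between exocrine and T or NK-like barcodes.

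Rps27l differed between clusters of the same lymphoid class. In the B cell-like cluster led by Cd79a it held 3.39% (3.03% to 3.78%) and 2.42% (2.12% to 2.74%) of the pair, and in the immunoglobulin-led cluster 16.5% (15.4% to 17.7%) and 23.8% (22.8% to 24.8%). The T or NK-like cluster led by Ccl5 stood at 1.65% and 1.30%, and the one led by Trbc2 and Tnfrsf9, the gene of the activation receptor 4-1BB, at 5.69% and 6.38%. The share of Rps27l was lower in Malat1-null in 7 of 7 beta-like clusters. It was 26.9% and 18.8% in the Serpina7 cluster and 29.7% and 24.9% in the cluster led by the heat shock genes Hspa1a and Hspa1b, where it was highest. Barcodes of 10 to 99 UMIs also differed, with 29.2% (27.3% to 31.1%) and 20.0% (18.5% to 21.6%), so a difference between libraries as a whole cannot be told apart from one between genotypes.

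Rpl22l1 separated endocrine from lymphoid and endothelial barcodes. The protein resembles Rpl22, which binds RNA and is known for its need in the development of T cells. Rpl22l1 held 47.2% and 49.9% of the pair's UMIs in beta-like, 51.8% and 59.5% in alpha-like, 55.7% and 50.3% in delta-like and 59.0% and 54.8% in PP-like barcodes. It held 21.9% and 21.0% in B cell-like, 26.8% and 24.6% in T or NK-like and 28.7% and 28.3% in endothelial-like barcodes. Acinar-like (38.8% and 36.8%) and ductal-like barcodes (29.9% and 24.7%) lay between or near the lower group.

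Rpl36al, a copy of Rpl36a outside the symbol pattern, held 59.4% and 65.5% of its pair in beta-like and 63.1% and 60.5% in delta-like barcodes. It held 36.8% and 35.4% in T or NK-like and 41.6% and 46.8% in B cell-like barcodes. Alpha-like (46.8% and 56.8%), PP-like (53.7% and 54.1%) and acinar-like barcodes (47.7% and 48.3%) lay between. Barcodes of 10 to 99 UMIs gave 50.8% and 58.5%, so a difference between libraries as a whole cannot be told apart from one between genotypes. Rpl7l1 was scarce beside Rpl7 everywhere. Its share was highest in endothelial-like barcodes, at 9.39% (8.13% to 10.8%) and 8.30% (6.68% to 10.2%), followed by 5.63% and 5.69% in beta-like and 1.81% and 2.40% in T or NK-like barcodes.

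**Figure D5:**
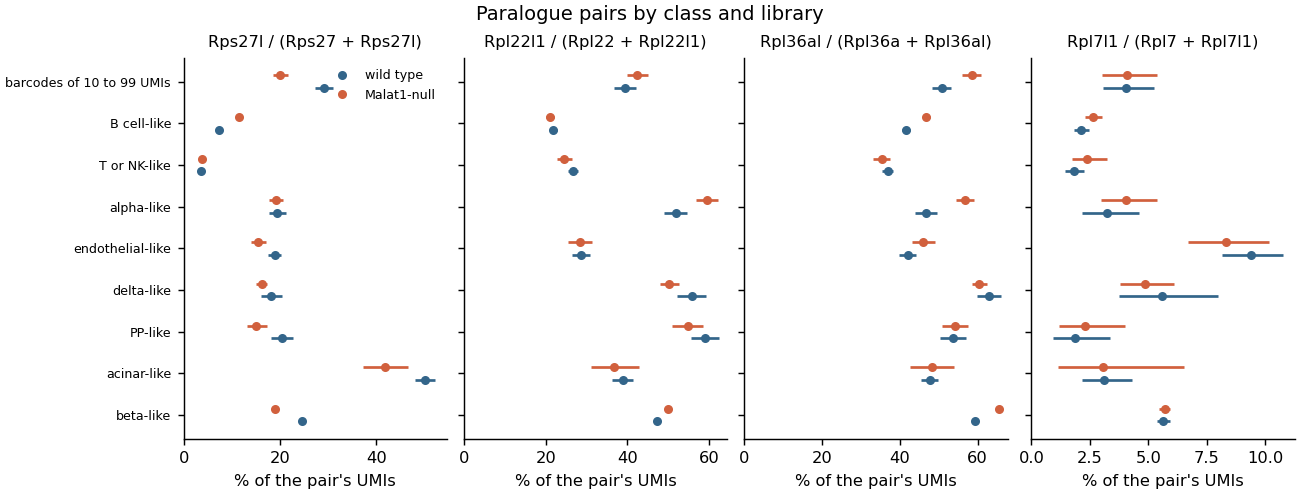
Share of the paralogue's UMIs among those of its pair (x axis, percent, a scale per panel starting at 0) by class and in barcodes of 10 to 99 UMIs (y axis), in wild type (blue) and Malat1-null (orange), with exact 95% binomial intervals. Rps27l runs from 3.50% in T or NK-like to 50.1% in acinar-like barcodes of wild type, and Rpl22l1 is higher in the endocrine classes than in lymphoid and endothelial-like barcodes.

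Rpl39l stayed near 0 in all classes although its coding sequence is like that of Rpl39, with 23 of 156 bases different (85.3% identical), again in capitals. It had 10 UMIs in 3 wild-type barcodes and 17 UMIs in 7 Malat1-null barcodes, while Rpl39 stood at 670 and 681 CPM in beta-like barcodes.
Rpl39: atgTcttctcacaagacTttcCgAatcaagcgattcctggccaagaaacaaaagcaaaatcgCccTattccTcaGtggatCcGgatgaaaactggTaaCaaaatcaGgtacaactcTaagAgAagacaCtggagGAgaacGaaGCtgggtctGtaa
Rpl39l: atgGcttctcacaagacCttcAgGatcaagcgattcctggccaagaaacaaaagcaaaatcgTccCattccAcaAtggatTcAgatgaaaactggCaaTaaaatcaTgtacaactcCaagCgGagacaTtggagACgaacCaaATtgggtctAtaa
Rpl3l had 1 UMI in wild type and none in Malat1-null, beside 485 and 417 CPM of Rpl3 in beta-like barcodes. Rps4l was not among the features, and Rps4x stood at 577 and 582 CPM.

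Other genes of the translation machinery were compared between genotypes in beta-like barcodes by the same rule. Over all 1640 genes that rule called 9.45% higher and 5.55% lower. Of 16 measured translation factors and other mRNAs with a pyrimidine tract, 1 was called higher (Hnrnpa1, an RNA-binding protein, at 58.4 and 82.1 CPM, ratio 1.41) and 1 lower (Tpt1, at 1805 and 1427 CPM, ratio 0.79), with a median log2 ratio of 0.00. Elongation factor Eef1a1 stood at 1401 and 1470 CPM and Eef2 at 343 and 399 CPM. Outside the symbol pattern, 4 ribosomal protein genes were measured, with 0 called higher and 1 called lower (log2 ratio -0.335). The others, Fau, Rack1 and Rpl36al, had ratios of 1.02, 0.98 and 1.11. None of 5 measured genes of ribosome biogenesis, 1 snoRNA host gene (Gas5) or 16 measured mitochondrial ribosomal protein genes was called.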

How the data were processed

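The authors deposited, per library, a matrix of raw UMI counts per gene and barcode from 10x Genomics 3′ v3 sequencing, with no filter on barcodes. Cell Ranger 4 is named per the file headers and Cell Ranger 2.1.0 with mm10 per the submitters' processing notes, and this conflict was not settled. The genes, lists and markers were chosen with earlier results of these data known.

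Barcodes with at least 1000 UMIs were kept. Both libraries were clustered together (scanpy 1.11.5, Leiden resolution 1, 2000 variable genes, 30 components). The genes described here, other symbols starting with Rpl or Rps, mitochondrially encoded genes, Malat1 and sex-linked genes were left out. Clusters were named from 15 marker lists, with a score of at least 0.6, at least 3 markers at 20 CPM and a gap of 0.1 to the next class. A first clustering had been seen when these limits were chosen. Called doublets (23 wild-type and 7 Malat1-null barcodes) were kept, and the second call is too small a share to have worked.

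UMIs were summed per class and library and scaled with TMM factors (edgeR 4.0.16, R 4.3.3). Ratios have exact conditional intervals and shares exact Clopper-Pearson intervals. Genes with at least 50 CPM in a library were counted between genotypes when at least 25% higher or at 0.8 times or below, with an interval that excludes 1. Between classes the rule was 2-fold in both libraries, at least 20 UMIs seen or expected, and classes of at least 20 barcodes. Log2 ratios had 0.5 UMIs added. The scripts were tested on simulated data.

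Named are the 6 highest and 6 lowest ratios in beta-like barcodes, the 5 most and 5 least abundant genes, the 8 widest ranges over classes, all paralogue pairs and the extremes of each list. Some genes that these rules name are not reported here. Other genes named beside them were chosen after their values were seen. Start-site windows come from RefSeq, and coordinates of genes and coding sequences from GENCODE M21 (GRCm38), which held 32235 of the 32285 gene identifiers.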

Additional observations from a re-analysis of the deposited data

Results flagged for a closer look

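The summed share of UMIs from ribosomal protein genes was lower in Malat1-null than in wild-type beta-like barcodes, at 0.850 times (0.849 to 0.851). It was also lower in B cell-like (0.815), alpha-like (0.882) and acinar-like barcodes (0.907). In 4 other classes of at least 20 barcodes per library it was higher. The ratio of Malat1-null to wild type was 1.05 in PP-like, 1.11 in T or NK-like, 1.10 in delta-like and 1.15 in endothelial-like barcodes. The B cell-like value joined unlike clusters, at 1.06 in the one led by Cd79a and 0.723 in the immunoglobulin-led one. For the B cell-like medians per barcode the ratio was 1.06. Each genotype is 1 library, and the difference between the classes was not tested. Without the UMIs of hormone genes, acinar enzymes, mitochondrially encoded genes and Malat1 in the total, the beta-like ratio was 0.971. The libraries filled the 7 beta-like clusters differently, and within clusters the ratio ran from 0.823 (Glul) to 1.13 (Hspa5), above 1 in 3 of 7.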

How the results depend on the processing

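The beta-like share in wild type was 5.63% with a minimum of 5000 UMIs, 5.61% with a minimum set per library, 5.65% with each library clustered alone, 5.60% with at most 20% mitochondrial UMIs and 5.59% without called doublets, an alternative chosen after seeing the data. In Malat1-null it was 4.79%, 4.84% and 4.77% with 5000 UMIs, each library alone and the mitochondrial limit. Without hormone, enzyme, mitochondrial and Malat1 UMIs the shares were 14.1% and 13.7%. The number of classes above beta-like in Malat1-null was 4 with 5000 UMIs, 3 with the minimum per library and 4 with each library alone, and in wild type 5 with the mitochondrial limit, as fewer classes kept 20 barcodes. With the minimum per library 3 classes could be compared, and 0 genes were 2-fold apart in the pool. In beta-like barcodes 1 gene was lower with the mitochondrial limit (5.80% of all genes). Without a minimum CPM 1 was higher (7.41% of all genes), Rpl39l, on 0 wild-type and 16 Malat1-null UMIs. Total-count scaling gave 25 lower (20.9% of all genes) with a median log2 ratio of -0.28.

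Within single beta-like clusters, also chosen after seeing the data, 1 gene was lower in the cluster led by Serpina7 (9.96% of all genes there). In the Slc2a2 cluster 4 were higher and 1 lower (all genes 14.5% and 7.43%; median -0.0066), in the Mlxipl cluster 3 lower (10.0%; -0.18), in the Pdyn cluster 2 higher (11.1%; 0.033, opposite in sign to the whole class), in the Hspa1a cluster 1 higher (16.2%; -0.012), in the Glul cluster 51 lower (21.9%; -0.38) and in the Hspa5 cluster 23 higher and 2 lower (27.6% and 21.9%; 0.20, again opposite). The cause was not tested. With Leiden resolution 2, without doublets and with each library alone, 79 of 79 genes kept the sign of their ratio, against 65 of 79 with total-count scaling and 30 of 79 in the Hspa5 cluster. No paired analysis was possible because each group is 1 library.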
